A study of Mus musculus with 22 samples.

Results

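The genes of the DENR complex and of the factors that end translation, split ribosomes and rescue stalled ones were followed to see whether any of them moved when Denr was depleted. They were chosen by name and not by a filter on their values, though earlier results of these data were known. They are Denr, Mcts1, Eif2d, Abce1, Pelo, Hbs1l, Etf1, Gspt1 and Abcf1. All 9 are among the 10516 genes of the files, each with a value for its CDS and its 5′ UTR. Mcts2, which encodes a near copy of MCTS1, was added for comparison because its level bears on the partner of DENR, and it is not counted among the members.

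The cells were NIH3T3, a mouse fibroblast line, and every culture carried an shRNA delivered by lentivirus and had been selected with puromycin. In the 6 Denr knockdown cultures the shRNA was Denr shRNA1 (3 cultures) or Denr shRNA2 (3 cultures). In the 5 control cultures it was a scramble shRNA (3 cultures) or a Gfp shRNA (2 cultures). All cultures were treated briefly with cycloheximide, which holds elongating ribosomes in place, before they were lysed, so no group was free of the drug, of the virus or of selection. Each lysate gave one ribosome-protected fragment library (RPF-seq) and one RNA-seq library, 22 libraries in all. The methods give a dish of cells per replicate, whereas the labels speak of lysate pools, so the p-values below measure the spread between these lysates. Counted on the CDS and 5′ UTR of the listed genes, the RPF-seq libraries held 10927303 to 21649878 reads and the RNA-seq libraries 8514080 to 20109700, and the scramble shRNA replicate 3 library was the shallowest of the RNA-seq set. Replicates of one shRNA had an R2 of 0.981 to 0.992 (log2 CDS RPKM across genes) in RPF-seq and of 0.956 to 0.994 in RNA-seq. All 8 fibroblast markers examined had RNA-seq values, while of 10 markers of epithelium, blood and endothelium only Cdh1 and Cdh5 were listed, with at most 4.05 and 1.10 RPKM.

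Values are RPKM, reads normalized to the length of the region and to library size, and changes are differences of log2(RPKM + 0.1), knockdown minus control. They were tested with limma over all genes, and a change is called where its Benjamini-Hochberg adjusted p is below a false discovery rate (FDR) of 0.1.

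Translation ends when eRF1 (Etf1) reads a stop codon together with the GTPase eRF3 (Gspt1), after which the ATPase ABCE1 splits the large from the small ribosomal subunit. DENR and MCTS1 act on the small subunit that is left behind: they help to release its tRNA and mRNA, and on transcripts with upstream open reading frames (uORFs) they help it to initiate again further downstream. eIF2D carries in a single protein chain regions related to both MCTS1 and DENR. Pelota (Pelo) and HBS1L resemble eRF1 and eRF3 but act on ribosomes that have stalled without a stop codon, and ABCF1 is a relative of ABCE1 by its ATPase domains with a role in initiation.

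The 2 sites that the Denr shRNAs target are shown because they define the knockdown, and both lie in coding exons of Denr, a gene of 8 exons at chr5:123907175-123928835 (GRCm38, plus strand). The site of shRNA1 is at chr5:123924766-123924786 in exon 6, and that of shRNA2 is at chr5:123908167-123908187 in exon 2. Capitals mark the 21 target bases, and lower case the bases of the GENCODE transcript beside them.
Denr shRNA1 site: gacaGTACCACAGAAGGTCACGATAgcca
Denr shRNA2 site: aacaGTGCCAAGTTAGATGCGGATTaccc

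Mcts1 has 6 exons and lies on chromosome X (chrX:38600578-38613426, plus strand), whereas Mcts2 is a single exon on chromosome 2 (chr2:152687035-152687946, plus strand) inside the gene H13. Their coding sequences, stop codon included, differ at 81 of 546 bases, which leaves 85.16% identical, and the encoded proteins differ at 11 of 181 residues. The longest run without a difference is 29 bases, and each of the 517 windows of 30 bases in the CDS has between 1 and 9 differences, with a median of 4. A read of 30 bases or more within the CDS therefore differs between the copies, while a shorter footprint can match both. The window with the most differences, CDS bases 409 to 438, is printed for both genes from the GENCODE transcripts with the differing bases in capitals, at chrX:38611778-38611807 and chr2:152687679-152687708.
Mcts1: gaAggAaaaCaAcatgcTTtAtgtgtGggT
Mcts2: gaGggGaaaGaGcatgcCCtGtgtgtCggA

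Similarity to other genes limits some of the values. None of the CDS windows of 30 bases of Denr, Mcts1 and Etf1 is shared with another annotated gene, but 35.87% of those of Pelo are shared with Gm49395, which overlaps it on the same strand. Pelo (chr13:115088355-115090186, minus strand) also lies inside the longer gene Itga1. The shared part is 19.36% for Hbs1l, 13.83% for Abce1, 11.41% for Mcts2, 9.457% for Abcf1, 7.12% for Gspt1, among them windows of the intronless copy Gspt2, and 1.841% for Eif2d. For Eif2d the CDS searched had 1710 bases, against 1749 behind the deposited values. How reads that match several genes were counted is not given in the sources used here, so the levels of Pelo and Hbs1l in particular are uncertain. Exons of protein-coding transcripts of Eif2d (chr1:131153181-131187658, plus strand), untranslated parts included, overlap exons of Rassf5 on the opposite strand. Those of Denr overlap Gm43518 on the same strand. Whether either overlap reaches the CDS was not examined.

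In control cells, the members covered a wide range of levels. RPKM divides reads by length, so it can be compared between genes. Gspt1 had the most RNA, 244 ± 16.8 RPKM (SD, n = 5), followed by Etf1 with 198 ± 22.8, Denr with 180 ± 11 and Abce1 with 148 ± 29.0. The ranges of these neighbours overlap, and Etf1 was above Denr in 4 of 5 control lysates.

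Hbs1l followed at 106 ± 9.01 RPKM of RNA, Abcf1 at 78.9 ± 2.48 and Eif2d at 63.2 ± 4.5. Pelo and Mcts1 stood far below all of them, at 12.1 ± 1.5 and 9.51 ± 3.91 RPKM of RNA, and their ranges overlap. Mcts1 rested on 44 to 84 RNA-seq reads per library and Pelo on 95 to 300, while every other member but Denr had at least 869.

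The order changed in footprints. Gspt1 again led with 360 ± 33.9 RPKM of CDS footprints (SD, n = 5), above the range of Etf1 at 169 ± 21.1, which overlapped that of Denr at 163 ± 12.3 and Abce1 at 153 ± 21.7. Abcf1 had 80.0 ± 6.08, and then Pelo (32.6 ± 2.86), Eif2d (32.3 ± 1.85) and Hbs1l (27.5 ± 1.73) came close together, with Mcts1 last at 15.1 ± 4.19. Pelo and Eif2d could not be ordered, as Pelo was higher in 2 of 5 lysates, whereas Eif2d exceeded Hbs1l in 5 of 5 although their ranges overlap.

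**Figure D1:**
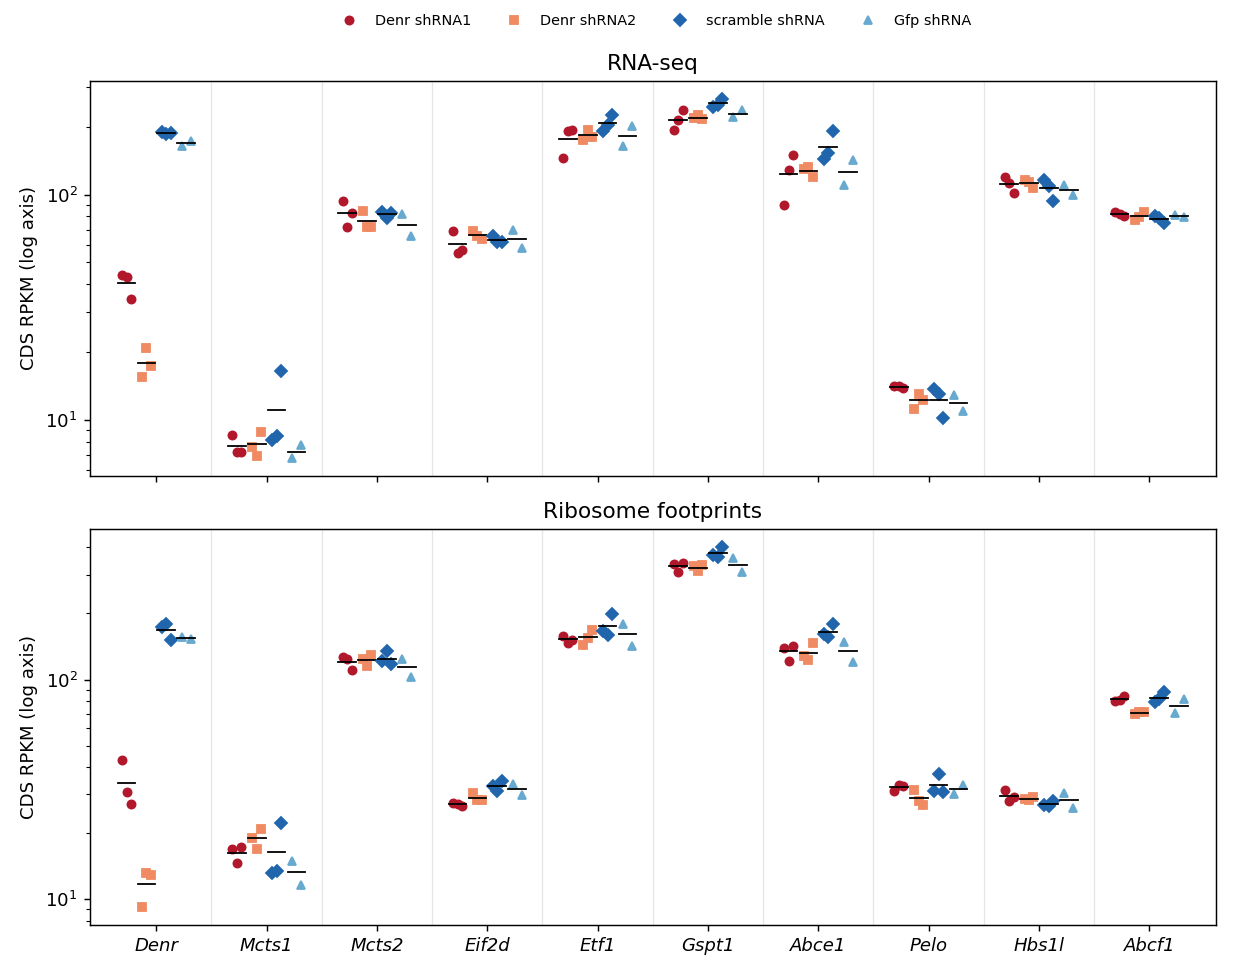
CDS RPKM on a log axis for the 9 members and Mcts2 in RNA-seq (top) and RPF-seq (bottom). Each point is 1 lysate, black bars are the means of each shRNA, and Denr is the one gene whose knockdown lysates (at most 44.0 RPKM in RNA and 43.2 in footprints) sit far below the controls (at least 165 and 152).

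Denr itself was depleted by both shRNAs. Its RNA was at 44.0, 43.2 and 34.4 RPKM with shRNA1 and at 15.5, 20.8 and 17.4 with shRNA2, against 190, 185 and 189 with scramble shRNA and 165 and 174 with Gfp shRNA. The groups did not overlap, and shRNA1 left 19.1% to 24.4% of the control mean where shRNA2 left 8.57% to 11.5%. A bulk lysate cannot tell apart fewer cells that express a gene from less RNA in each cell.

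Denr footprints followed, at 43.2, 30.9 and 27.1 RPKM with shRNA1 and 9.25, 13.2 and 12.8 with shRNA2, against 152 to 179 in the controls. The knockdown contrast was −2.75 ± 0.25 (log2, SE) for RNA (limma, adjusted p = 0.00035) and −3.05 ± 0.32 for footprints (limma, adjusted p = 0.000445). The 2 Denr shRNAs differed in strength: shRNA2 minus shRNA1 was −1.18 in RNA (limma, adjusted p = 0.00403) and −1.50 in footprints (limma, adjusted p = 0.000269). Each knockdown lysate was below every control lysate in both assays, so no library went against its label.

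Translation efficiency (TE), the ratio of CDS footprints to CDS RNA in a lysate, was also lower for what was left of Denr. It was 0.982, 0.716 and 0.787 with shRNA1 and 0.601, 0.636 and 0.740 with shRNA2, and between 0.806 and 0.968 in the controls. Thus 5 of 6 knockdown lysates were below all controls and 1 was above them. The log2 change of −0.30 (95% interval −0.55 to −0.05) did not pass the threshold (limma, adjusted p = 0.625).

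Mcts1 encodes the partner of DENR in the complex. Mcts1 RNA was 6.90 RPKM at the lowest, 7.37 at the median and 8.86 at the highest in the 6 knockdown lysates. The 5 control lysates held 8.16, 8.51 and 16.4 RPKM with scramble shRNA and 6.74 and 7.73 with Gfp shRNA. Scramble shRNA replicate 3 stood far above the other controls, and the groups overlap.

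The log2 change of Mcts1 RNA was −0.23 (95% interval −0.62 to 0.16, limma, adjusted p = 0.583), and without scramble shRNA replicate 3 it was −0.01. Its footprints ran from 14.6 to 20.9 RPKM, with a median of 17.1, in knockdown, and were 13.2, 13.5 and 22.3 with scramble shRNA and 14.9 and 11.7 with Gfp shRNA. The footprint change was 0.25 (95% interval −0.05 to 0.55, limma, adjusted p = 0.294) and did not pass. Without scramble shRNA replicate 3 it was 0.40 and passed (limma, adjusted p = 0.0482), so this library decides the call.

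The TE of Mcts1 had the largest change among the members. It was 1.96, 2.02 and 2.40 with shRNA1 and 2.50, 2.44 and 2.35 with shRNA2, against 1.61, 1.58 and 1.36 with scramble shRNA and 2.19 and 1.5 with Gfp shRNA. Of the 6 knockdown lysates, 4 were above all controls, and Gfp shRNA replicate 1 reached into the knockdown range. The log2 change was 0.48 (95% interval 0.23 to 0.73, limma, adjusted p = 0.174) and missed the threshold over all genes, while it passed without Gfp shRNA replicate 1 (0.59, limma, adjusted p = 0.0449). Of the RNA values behind these ratios, none rests on more than 84 reads.

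Mcts2 was by far the more abundant of the 2 MCTS genes in these cells. Its RNA was 78.4 ± 7.49 RPKM in control (SD, n = 5) and 79.5 ± 8.97 in knockdown (SD, n = 6), and it made up 83.4% to 92.4% of the sum of Mcts1 and Mcts2 RNA in the 11 lysates. Its footprints were 120 ± 11.5 RPKM in control and 122 ± 7.32 in knockdown, 84.1% to 90.9% of the sum of both genes.

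With Mcts2 included, the footprints of the MCTS side of the complex came nearer to those of Denr than its RNA did. The sum of Mcts1 and Mcts2 footprints was 135 ± 12.6 RPKM in the controls, 0.745 to 0.924 of the Denr value of the same lysate. In RNA the sum was 87.9 ± 9.44 RPKM, 0.421 to 0.537 of Denr. Mcts2 showed no change past the threshold in RNA (0.02, 95% interval −0.18 to 0.21, limma, adjusted p = 0.95) or in footprints (0.02, −0.13 to 0.17, limma, adjusted p = 0.879). The sum of both genes changed by 0.05 on the log2 scale in footprints (exact permutation test, p = 0.565) and by −0.01 in RNA (exact permutation test, p = 0.916).

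Eif2d, the gene of the single-chain relative of the complex, lost footprints. They were 27.5, 27 and 26.5 RPKM with shRNA1 and 30.6, 28.3 and 28.2 with shRNA2, against 32.6, 31.0 and 34.5 with scramble shRNA and 33.4 and 29.9 with Gfp shRNA. Each shRNA1 lysate and 2 of 3 shRNA2 lysates were below every control, and shRNA2 replicate 1 was inside the control range. The log2 change was −0.20 ± 0.06 (SE), a fold of 0.868 (95% interval 0.796 to 0.947), and passed the threshold (limma, adjusted p = 0.0616).

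Eif2d RNA did not move with its footprints. It had its lowest value at 54.9, its median at 64.3 and its highest at 69.2 RPKM in knockdown and ran from 57.7 to 69.4 in control, a log2 change of −0.0036 (95% interval −0.17 to 0.17, limma, adjusted p = 0.991). The TE of Eif2d was 0.399 to 0.492 in knockdown and 0.482 to 0.562 in control, with 5 of 6 knockdown lysates below all controls. That change of −0.20 (95% interval −0.37 to −0.03) did not pass (limma, adjusted p = 0.625).

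The footprint call of Eif2d was lost when single libraries were left out. The limma adjusted p was 0.119 without Denr shRNA1 replicate 2, 0.106 without Denr shRNA1 replicate 3 and 0.104 without Denr shRNA2 replicate 2. It was 0.135 without scramble shRNA replicate 1 and 0.127 without scramble shRNA replicate 3, and the change stayed between −0.23 and −0.18 in all 11 omissions. Whether the exon overlap with Rassf5 reaches the CDS of Eif2d was not examined. Reads of Rassf5 could not be separated here, and their part in this result was not tested.

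**Figure D2:**
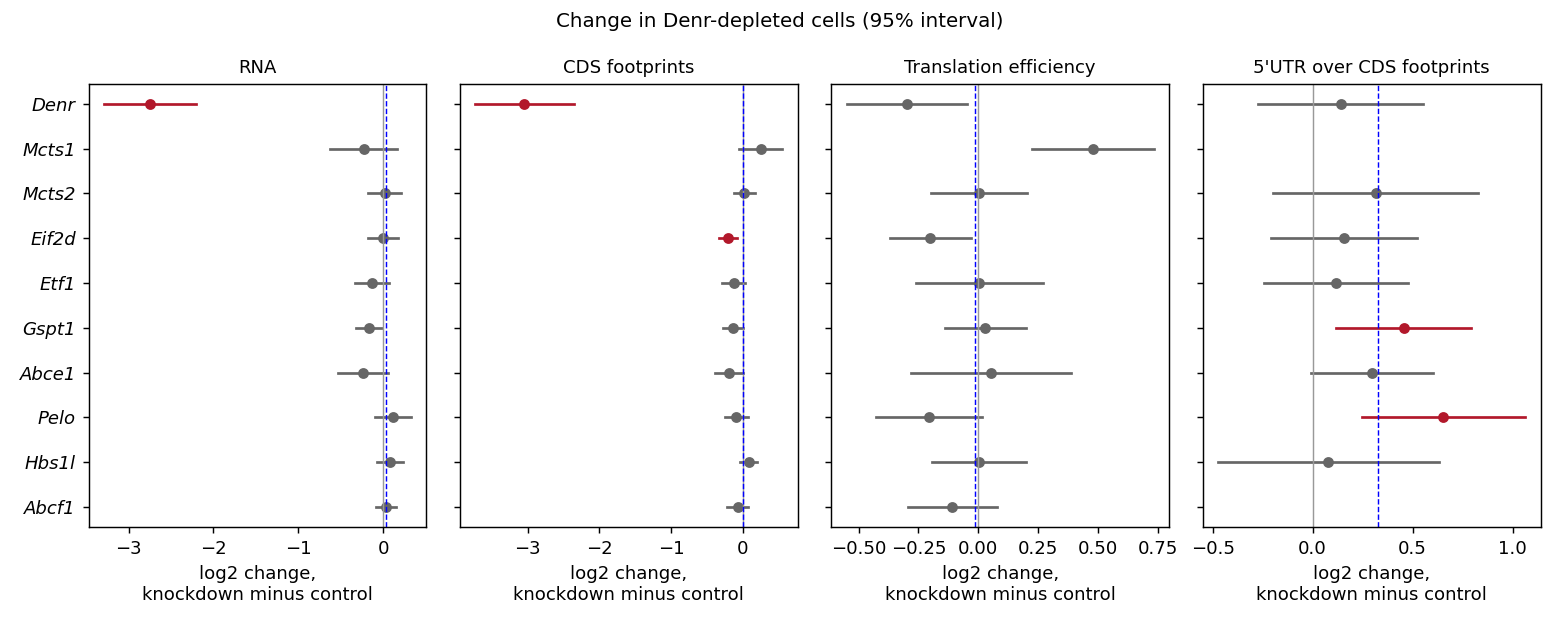
Log2 change of each member and of Mcts2, knockdown minus control, with its 95% interval, in RNA, CDS footprints, TE and 5′ UTR over CDS footprints. Red marks an adjusted p below 0.1 and the dashed line is the median change of all genes tested, which lies at 0.33 in the last panel and near 0 in the others; each panel has its own scale.

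The release factor genes Etf1 and Gspt1, which encode eRF1 and eRF3a, were somewhat lower in knockdown in both assays, without passing the threshold. Gspt1 RNA had its lowest value at 194, its median at 217 and its highest at 237 RPKM in knockdown, against 246, 250 and 267 with scramble shRNA and 221 and 237 with Gfp shRNA. Of the 6 knockdown lysates, 4 were below all controls. The log2 change was −0.17 (95% interval −0.32 to −0.02, limma, adjusted p = 0.244). With the replicate number in the model it was −0.18 and passed narrowly (limma, adjusted p = 0.0989).

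Gspt1 footprints were between 309 and 338 RPKM in knockdown and between 308 and 403 in control, a log2 change of −0.14 (95% interval −0.28 to −0.0002, limma, adjusted p = 0.211). Gfp shRNA replicate 2 held the lowest control value, and without it the change was −0.19 and passed (limma, adjusted p = 0.046). No other omission of a single lysate made the footprint change pass, and it ran from −0.19 to −0.10 across them all (limma, adjusted p up to 0.399). The TE of Gspt1 was about the same in both groups, at 1.51 ± 0.128 (SD, n = 6) and 1.48 ± 0.117 (SD, n = 5).

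Etf1 RNA ran from 145 to 194 RPKM in knockdown, with a median of 186, and from 164 to 227 in control. Its log2 change was −0.13 in RNA (95% interval −0.34 to 0.07, limma, adjusted p = 0.532) and −0.13 in footprints (−0.29 to 0.04, limma, adjusted p = 0.322). Denr shRNA1 replicate 1 was the lysate with 145 RPKM of RNA, far below the next at 176. Without Gfp shRNA replicate 2 the footprint change was −0.19 and passed narrowly (limma, adjusted p = 0.096). Leaving out any other lysate did not make it pass. Its range across the omissions of single lysates was −0.19 to −0.07 (limma, adjusted p up to 0.609).

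Abce1, the gene of the ATPase that splits terminated ribosomes, varied widely between lysates. Its RNA was 90.1, 128 and 151 RPKM with shRNA1 and 130, 132 and 120 with shRNA2, against 143, 153 and 191 with scramble shRNA and 110 and 143 with Gfp shRNA. The groups overlap, and the lowest value, Denr shRNA1 replicate 1, and the highest, scramble shRNA replicate 3, stood apart from the rest. The log2 change was −0.24 in RNA (95% interval −0.54 to 0.06, limma, adjusted p = 0.423) and −0.19 in footprints (−0.38 to 0.01, limma, adjusted p = 0.233). Without Gfp shRNA replicate 2 the footprint change was −0.27 and passed (limma, adjusted p = 0.0386). It passed with no other lysate left out. Across the omissions of single lysates it ran from −0.27 to −0.13 (limma, adjusted p up to 0.445).

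The rescue factor genes Pelo and Hbs1l gave small changes of either sign. Pelo RNA was 11.2 to 14.2 RPKM in knockdown and 10.2 to 13.7 in control (0.12, 95% interval −0.09 to 0.32, limma, adjusted p = 0.605). Its footprints were 26.9 to 33.3 RPKM in knockdown and 30.2 to 37.2 in control (−0.09, −0.25 to 0.07, limma, adjusted p = 0.482). Hbs1l changed by 0.08 in RNA (−0.08 to 0.24, limma, adjusted p = 0.632) and by 0.08 in footprints (−0.04 to 0.21, limma, adjusted p = 0.405).

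Abcf1 RNA varied least between lysates. Its RNA had a range of 77.1 to 83.6 RPKM in knockdown and of 74.9 to 81.0 in control, a log2 change of 0.04 (95% interval −0.08 to 0.16, limma, adjusted p = 0.79). Its footprints were 80.1, 80.8 and 84.4 RPKM with shRNA1 but 69.7, 70.8 and 71.1 with shRNA2, and from 70.7 to 87.4 in control. The difference of −0.21 between the 2 Denr shRNAs did not pass (limma, adjusted p = 0.162). Their lysates did not overlap for Abcf1 footprints, but nor did they for Eif2d footprints, Pelo RNA and Abcf1 TE. How many of all genes show such a separation was not counted.

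Over the 9 members, 1 was called in RNA, Denr, where 3.55% of all 10516 genes were called at the same threshold. In CDS footprints 2 were called, Denr and Eif2d, against 10.0% of all genes, and both were lower. In TE none of the 9 was called, where limma called 0.475% of all genes. An unadjusted limma p below 0.05 was found for 3 of the 9 (Mcts1, Denr and Eif2d) and for 700 of all 10516 genes. No member was called higher in any of these readouts. The median change of the members was −0.13 in RNA, −0.13 in footprints and 0.002 in TE, beside 0.03, 0.01 and −0.01 over all genes.

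Denr is the target of the shRNAs, so its call was set by the design. Of the 8 other members, 0 were called in RNA and 1 in footprints (Eif2d), the latter a share near the 10.0% of all genes. Their estimates lay between −0.24 and 0.12 in RNA and between −0.20 and 0.25 in footprints. The upper ends of their 95% intervals reached at most 0.32 in RNA and 0.55 in footprints, a fold of 1.25 and 1.47, the latter for Mcts1. Increases beyond these sizes lie outside the intervals of the pooled contrast, and smaller ones could not be told from the spread between lysates. Other intervals reached higher. For Mcts1 the upper end was a fold of 1.66 in pooled TE, and with shRNA2 alone 1.64 in footprints and 1.84 in TE. In RNA it was 1.37 with shRNA1 alone (Pelo).

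The 2 Denr shRNAs were also set against the same 5 control lysates one by one, so these comparisons share their controls. In RNA, Denr was the only member called by either shRNA, where 3.86% of genes were called for shRNA1 and 3.73% for shRNA2. In footprints, shRNA1 gave Denr and Eif2d (−0.26, 95% interval −0.40 to −0.11, limma, adjusted p = 0.035; background 11%), and shRNA2 gave Denr (background 11.6%), with Eif2d at −0.15 (−0.29 to −0.01, limma, adjusted p = 0.18). The difference between the 2 shRNAs did not pass for Eif2d (0.10, −0.05 to 0.26, limma, adjusted p = 0.544).

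Mcts1 footprints were 0.14 above control with shRNA1 (95% interval −0.22 to 0.50) and 0.36 above with shRNA2 (0.002 to 0.72), both short of the threshold (limma, adjusted p = 0.655 and 0.211). Its TE was 0.38 above control with shRNA1 (0.08 to 0.68, limma, adjusted p = 0.914) and 0.58 above with shRNA2 (0.28 to 0.88, limma, adjusted p = 0.164), where all 3 lysates of shRNA2 exceeded all controls. No member was called in TE by limma for shRNA1 (0.0475% of all genes) or shRNA2 (0.475%). An unadjusted limma p below 0.05 was found for 1 of the 9 and 463 of 10516 genes with shRNA1. With shRNA2 it was found for 3 of the 9 and 868 of 10516 genes. Between the shRNAs, Denr was the only member called in RNA (background 1.58%) and in footprints (background 6.06%), and in TE limma called no gene at all (0.0%), with 430 of 10516 genes at an unadjusted p below 0.05.

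TE set the members apart more than the knockdown did. In control cells, Pelo had a TE of 2.68, higher than 97.35% of all genes, and Mcts1 (1.63), Mcts2 (1.53) and Gspt1 (1.47) lay above 80.38% to 85.9% of genes. Abce1, Abcf1, Denr and Etf1 were near 1, at 1.04, 1.01, 0.903 and 0.856. Eif2d at 0.513 and Hbs1l at 0.261 were low, the latter above just 4.65% of genes. These ratios are geometric means over 5 control lysates, with footprints and RNA normalized separately, so that 1 has no absolute meaning. Pelo and Hbs1l, at the ends of this range, share the most CDS windows with other genes (35.87% and 19.36%), so their TE is uncertain. The Mcts1 value rests on 60 to 77 RNA-seq reads per control library.

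**Figure D3:**
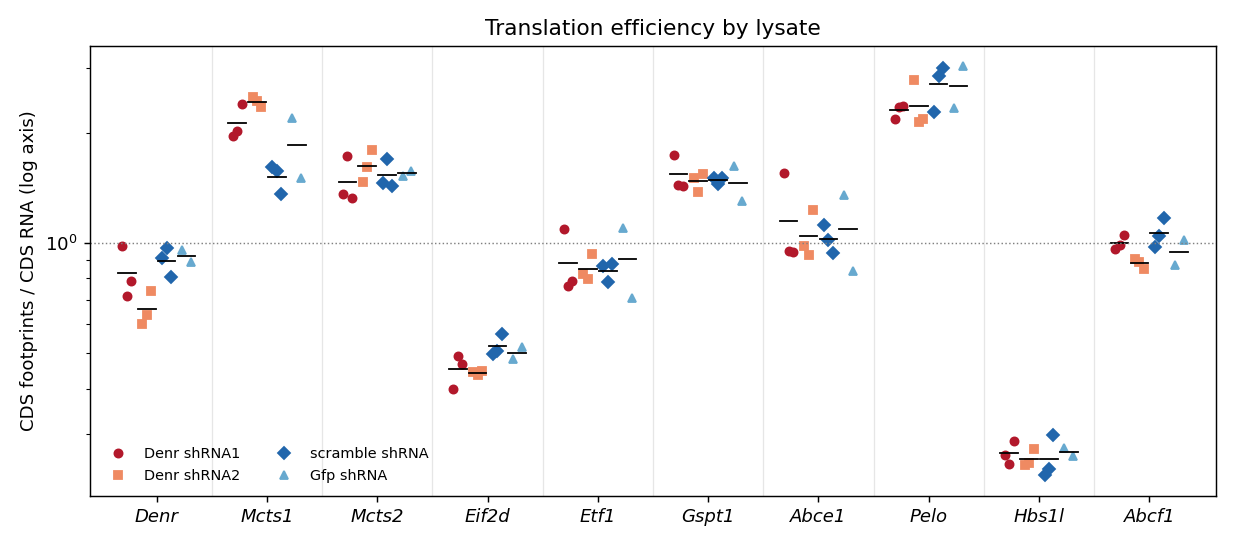
TE (CDS footprints over CDS RNA, log axis) of the 9 members and Mcts2 in each of the 11 lysates, with black bars at the mean of each shRNA. Pelo lies above 2 and Hbs1l below 0.3 in every lysate, and both share CDS windows with other genes. The Mcts1 knockdown lysates (1.96 to 2.50) overlap the controls (1.36 to 2.19) through 1 Gfp shRNA lysate.

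The ratio of Mcts1 to Denr rose, a direction that the depletion of Denr sets, and its size describes how far the partners came apart. In RNA it went from 0.0505 in control (range 0.0415 to 0.0874) to 0.290 in knockdown (0.168 to 0.513). In footprints it went from 0.0911 to 0.894, with single knockdown lysates between 0.394 and 2.05. The groups did not overlap, and the log2 changes of 2.52 and 3.30 each had the smallest p that the splits of 11 lysates can give (exact permutation test, p = 0.00216, adjusted over 6 ratios 0.00649), which restates the depletion of Denr and is no separate result.

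With both MCTS genes summed, their values exceeded those of Denr in every knockdown lysate. The footprints of Mcts1 and Mcts2 together came to between 3.33 and 15.3 times those of Denr in the knockdown lysates, against 0.745 to 0.924 in control. In RNA they came to between 1.83 and 5.93 times Denr. The sum itself was 139 ± 8.24 RPKM of footprints in knockdown (SD, n = 6) and 135 ± 12.6 in control (SD, n = 5).

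The ratio of the release factor pair did not change past the test. Gspt1 to Etf1 was 1.24 in control RNA (1.18 to 1.35) and 1.21 in knockdown (1.12 to 1.34), and in footprints 2.13 (2.00 to 2.26) and 2.12 (1.98 to 2.28). The log2 differences of −0.04 in RNA (exact permutation test, p = 0.513) and −0.01 in footprints (exact permutation test, p = 0.807) were within the SD between lysates, which was at most 0.09.

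The ratio of the rescue pair lay far apart in the 2 assays, and its change with knockdown did not pass. There was 8.70 times as much Hbs1l as Pelo RNA in control (8.39 to 9.13) and 8.49 times as much in knockdown (7.30 to 10.3). In footprints the same ratio was 0.847 in control (0.712 to 1.00) and 0.955 in knockdown (0.841 to 1.08), near parity, where RNA had a several-fold excess. The knockdown differences were −0.04 in RNA (exact permutation test, p = 0.647) and 0.17 in footprints (exact permutation test, p = 0.13). Both genes share windows with other genes, as given above.

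**Figure D4:**
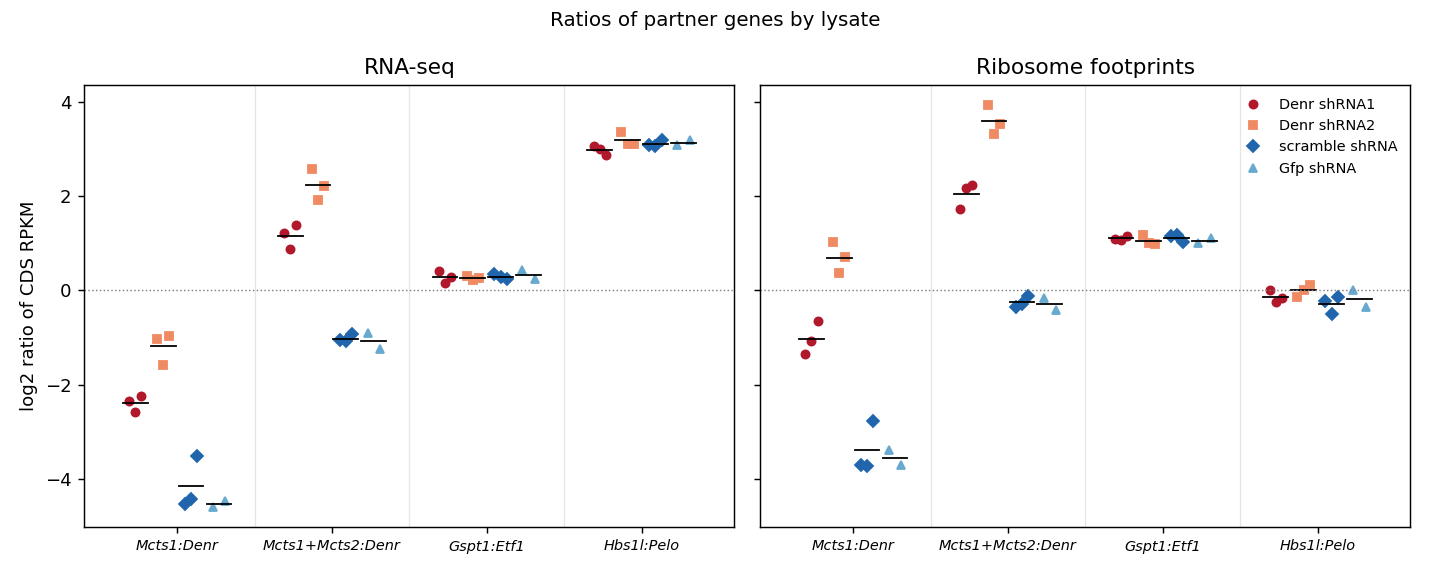
Log2 ratio of the CDS RPKM of partner genes in RNA-seq (left) and RPF-seq (right), 1 point per lysate with black bars at the mean of each shRNA. The ratios to Denr rise in all 6 knockdown lysates, Gspt1 to Etf1 stays in a narrow band, and Hbs1l to Pelo lies near 3.1 in RNA and near 0 in footprints.

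Relative 5′ UTR translation, the log2 ratio of 5′ UTR to CDS footprint RPKM, was tested for genes whose 5′ UTR held 20 or more footprints in 9 or more of the 11 libraries. That left 5175 genes and 7 of the 9 members. Mcts1 had 7 to 22 and Abcf1 0 to 7 footprints on the 5′ UTR and did not qualify. Of the 7 members, 2 were called and both rose, Pelo and Gspt1, beside 18.1% of all genes tested, and all 7 estimates were above 0, as were 93.55% of those of all genes.

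Pelo changed most. Its ratio was −0.39, −0.25 and −0.38 with shRNA1 and −0.52, −0.18 and −0.41 with shRNA2, against −0.56, −1.03 and −1.80 with scramble shRNA and −0.93 and −0.73 with Gfp shRNA. All knockdown lysates were above all controls, with scramble shRNA replicate 3 far below the other controls. The change was 0.65 (95% interval 0.25 to 1.06, limma, adjusted p = 0.0635). It was no longer past the threshold without Denr shRNA1 replicate 2 (limma, adjusted p = 0.138), Denr shRNA1 replicate 3 (0.1001), Denr shRNA2 replicate 2 (0.144) or Gfp shRNA replicate 1 (0.123). No AUG uORF was found in the 5′ UTR of the Pelo transcript used here.

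Gspt1 rose by 0.46 (95% interval 0.12 to 0.79, limma, adjusted p = 0.0860), from −1.71, −1.49 and −1.96 with scramble shRNA and −1.87 and −1.28 with Gfp shRNA to between −1.32 and −1.07 in knockdown. Of the 6 knockdown lysates, 4 were above all controls. This call was lost without any one of Denr shRNA1 replicates 1, 2 and 3, Denr shRNA2 replicate 2, scramble shRNA replicates 1 and 3 and Gfp shRNA replicate 1 (limma, adjusted p between 0.107 and 0.179). Gspt1 too has no AUG uORF on the transcript used here, whose 5′ UTR of 212 bases is shorter than the 273 bases behind the deposited values.

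The other 5 members changed by 0.30 (Abce1), 0.16 (Eif2d), 0.14 (Denr), 0.12 (Etf1) and 0.08 (Hbs1l), none past the threshold. The median change of all genes was 0.33. With each library centred on its median over genes, the change was 0.33 for Pelo and 0.13 for Gspt1, while Abce1, Eif2d, Denr, Etf1 and Hbs1l were at −0.03, −0.17, −0.18, −0.20 and −0.24, and no member was called (limma, adjusted p = 0.582 for Pelo and 0.738 for Gspt1). Eif2d had more footprints per length on the 5′ UTR than on the CDS in the control mean, at 0.38 on the log2 scale. Hbs1l was at 0.06 ± 0.70 (SD, n = 5), with control lysates from −0.78 to 0.95, so its side of 0 could not be told.

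**Figure D5:**
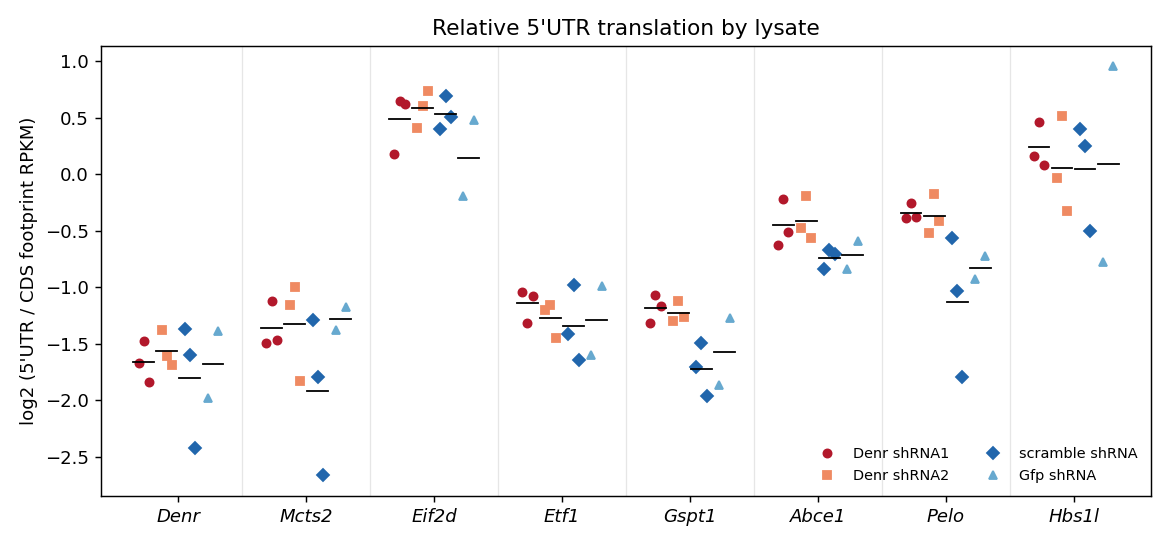
Log2 ratio of 5′ UTR to CDS footprint RPKM in each lysate for the 7 members tested and Mcts2, with black bars at the mean of each shRNA. The Pelo knockdown lysates (−0.52 to −0.18) lie above all controls (−1.80 to −0.56), and for every other gene shown the groups overlap.

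Of the 9 members, 5 have at least 1 AUG uORF of 9 bases or more in the 5′ UTR of the transcript used, with 2 in Abce1 and 1 each in Denr, Eif2d, Hbs1l and Etf1. None was found in Mcts1, Pelo, Gspt1 and Abcf1, and Mcts2 has 1. Only AUG starts were searched and their translation was not examined, whereas the paper also took CUG, GUG and UUG and required footprint evidence. The 5′ UTR searched was shorter than the one behind the deposited values for Denr (201 against 415 bases), Hbs1l (101 against 155), Abcf1 (43 against 76), Pelo (267 against 269) and Gspt1, so uORFs outside it are not counted. Over 10205 genes with an annotated 5′ UTR the share with such a uORF was 50.33%. The members with such an AUG uORF had TE changes of −0.30 (Denr), −0.20 (Eif2d), 0.05 (Abce1), 0.004 (Etf1) and 0.002 (Hbs1l). Those in which no AUG uORF was found had 0.48 (Mcts1), −0.21 (Pelo), 0.03 (Gspt1) and −0.11 (Abcf1), and they may hold uORFs with other starts.

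Beyond the members, 35 other genes of termination, rescue, mitochondrial recycling and subunit joining were listed, of which 33 are in the files. In RNA 1 of the 33 rose and none fell, a share near the 3.55% of all genes called. That was Eif1, a start codon selection factor with the same fold as a domain of DENR, at 319 to 445 RPKM in knockdown and 272 to 306 in control (0.38 ± 0.09, SE, limma, adjusted p = 0.0462). Its footprints changed by 0.22 and did not pass (limma, adjusted p = 0.287).

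In footprints 1 of the 33 rose and 2 fell, a share near the 10.0% of all genes called. Eif1b, the close relative of Eif1, rose by 0.27 ± 0.07 (SE, limma, adjusted p = 0.0407). Nemf, which binds split large subunits with an unfinished chain, fell by 0.44 on the log2 scale (limma, adjusted p = 0.0573), from 17.3 to 22.3 RPKM in control to 11.2 to 18.9 in knockdown. Rack1, a protein of the small subunit used in sensing collided ribosomes, fell by 0.21 (limma, adjusted p = 0.0803), with no overlap between the groups.

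None of the 33 was called in TE, where 0.475% of all genes were called. An unadjusted limma p below 0.05 was found for 2 of them and for 700 of all 10516 genes. Relative 5′ UTR translation was testable for 19 of them, and 6 rose and none fell, where 18.1% of all 5175 genes were called and 937 of those 939 calls were rises. Gigyf2, a repressor of initiation on mRNAs with stalled ribosomes, rose by 1.03 (limma, adjusted p = 0.0269), and Abcf2, an ATPase of ribosome assembly, by 0.75 (limma, adjusted p = 0.0525). Ascc2, a subunit of the complex that takes collided ribosomes apart, rose by 0.60, Rack1 by 0.50 and Eif1ad by 0.42 (limma, adjusted p = 0.0817, 0.0635 and 0.0845). Eif6, which keeps free large subunits from joining and is named outside the rule to complete the count, rose by 0.45 (limma, adjusted p = 0.0926). The median change of the 19 was 0.39, beside 0.33 over all genes.

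The genes whose pattern over the lysates was most like that of Denr still differed from it. Likeness was measured by the root mean square difference of log2 CDS RPKM, centred per gene, over the 11 lysates. In RNA the nearest were Cxcl1 (0.81), Cxcl5 (0.88) and Nppb (0.92), beside a median gene at 1.47, and in footprints Klhdc8a (0.93), Anapc5 (1.04) and Ppbp (1.07), beside 1.64. They changed by −1.42, −1.17 and −1.12 in RNA and by −1.36, −1.13 and −1.31 in footprints, where Denr changed by −2.75 and −3.05. None of the other 8 members was among them.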

How the data were processed

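For every library the deposited files gave 2 RPKM values per gene, for CDS and 5′ UTR. According to the submitters' processing notes and the methods, the authors trimmed reads with cutadapt, mapped them with Bowtie2 2.2.1 and TopHat2 2.0.11 to rRNA, tRNA, cDNA and the mouse genome (GRCm38), estimated expressed isoforms with Cufflinks 2.2.1, removed mitochondrial genes and genes with few reads, and scaled each assay on its own by edgeR's upper quartile method. Footprints were placed by their A-site. Replicates were not pooled. Whether counting used strand is not given in the sources used here.

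The read number behind each RPKM was recovered as a whole number for all 231352 CDS and 228800 finite 5′ UTR entries, which gave the depths. Changes were tested on log2(RPKM + 0.1) with limma 3.58.1 (lmFit, eBayes with trend) in R 4.3.3, 6 knockdown against 5 control lysates, with Benjamini-Hochberg adjustment over all genes and an FDR of 0.1. Each Denr shRNA was compared in a fit of 3 groups (Denr shRNA1, Denr shRNA2, control). Ratios of partners were tested by exact two-sided permutation over all splits of the 11 lysates, with a threshold of 0.05, and adjusted over 6 ratios. TE was log2 CDS RPF-seq minus log2 CDS RNA-seq, and 5′ UTR translation the log2 ratio of 5′ UTR to CDS footprints. The limma step was also run on simulated data. The simulated lysates were drawn independently, so that run does not bear on variation shared between lysates of the same replicate number.

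Gene positions, transcripts and uORFs came from GENCODE vM21 (GRCm38), taking the protein-coding transcript with the longest CDS. For genes with 1 coding transcript, lengths implied by the RPKM matched the annotation for 93.25% of CDS (2712 genes) and 80.52% of 5′ UTRs (2562 genes). The 9 members, the list of 35 other genes and the tests were chosen with earlier results of these data known. Other genes were named if past the FDR, at most 8 with the lowest p, beside the 3 most like Denr and the near copy Mcts2. Gspt2 and Tcf25 are not among the 10516 genes and were not analysed here. Alternatives were pseudocounts of 0.01 and 1, a mean RPKM of at least 1, median centring, eBayes without trend, scramble shRNA as the only control, a replicate block, each lysate left out, an interaction over the 22 libraries for TE, a 5′ UTR RPKM of at least 1, and 5′ UTR footprints over 5′ UTR RNA. Voom on the recovered reads and the ratios with Mcts2 were added after seeing the data.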

Additional observations from a re-analysis of the deposited data

Results flagged for a closer look

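Of 76 groups of 5 or 6 lysates examined for the members and Mcts2, 4 held a lysate set apart from the others by a gap that chance gives in about 1 in 20 groups. Among the controls, scramble shRNA replicate 3 was high for Mcts1 RNA, at 4.05 on the log2(RPKM + 0.1) scale beside a control median of 3.05. Gfp shRNA replicate 2 was low for Mcts2 RNA, at 6.03 beside 6.35. Among the knockdown lysates, Denr shRNA1 replicate 1 was low for Etf1 RNA, at 7.18 beside a median of 7.54, and high for Hbs1l footprints, at 4.98 beside 4.86.

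The strength of the Denr depletion differed between the 2 Denr shRNAs. Denr shRNA2 minus Denr shRNA1 was −1.18 in RNA (limma, adjusted p = 0.00403) and −1.50 in CDS footprints (limma, adjusted p = 0.000269), with all 3 lysates of shRNA2 below all 3 of shRNA1 in both. No other member, nor Mcts2, passed this test in RNA, footprints or TE.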

How the results depend on the processing

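The call of Denr in RNA and footprints kept its direction and its side of the threshold under every alternative run, and the ratios to Denr, which follow from its depletion, did too. The number of members called moved more. In RNA 1 became 2 with the replicate block (Gspt1 added, limma, adjusted p = 0.0989), and in footprints 2 became 4 with the replicate block and 4 with scramble shRNA as the only control (Abce1 and Gspt1 added in both, limma, adjusted p = 0.0634 and 0.0795 with the block). The replicate block also added Abce1 (0.31, limma, adjusted p = 0.0559) and Mcts2 (0.42, limma, adjusted p = 0.0806) in 5′ UTR translation, with Pelo and Gspt1 still called. Leaving out single lysates gave 1 to 5 members in footprints (5 without Gfp shRNA replicate 2), 0 to 1 in TE (1 without Gfp shRNA replicate 1) and 0 to 2 in relative 5′ UTR translation. The 2 members called in 5′ UTR translation became 0 with median centring, 0 with a 5′ UTR RPKM of at least 1 and 0 with 5′ UTR RNA in place of CDS footprints as the denominator. The RPKM filter left their changes at 0.65 and 0.46 and enlarged the set tested from 5175 to 7760 genes (limma, adjusted p = 0.113 for Pelo and 0.131 for Gspt1). Over 5′ UTR RNA the changes were 0.48 and 0.45 (limma, adjusted p = 0.219 and 0.173), and the cause of that loss was not tested. Genes called over the whole table went from 373 to 1003 in RNA, from 1053 to 1940 in footprints and from 939 to 2418 in 5′ UTR translation with the replicate block. With scramble shRNA as the only control they were 940, 2651 and 514, and 10 in place of 50 in TE. In 5′ UTR translation, median centring left 4, a 5′ UTR RPKM of at least 1 left 131 and 5′ UTR RNA as the denominator 4. In RNA, 282 of the 373 were higher, and 191 of 298 with median centring. Leaving out single lysates gave from 139 (without scramble shRNA replicate 2) to 734 (without Gfp shRNA replicate 1) in RNA, from 484 (without scramble shRNA replicate 1) to 1946 (without Gfp shRNA replicate 2) in footprints, from 14 (without Gfp shRNA replicate 2) to 72 (without Denr shRNA1 replicate 1) in TE and from 38 (without Denr shRNA2 replicate 2) to 1773 (without Gfp shRNA replicate 2) in 5′ UTR translation. Same-numbered lysates deviated together with a correlation above 0.1 in 10 of 15 pairs in RNA, 13 of 15 in RPF-seq and 10 of 15 in TE, and 7, 9 and 9 of 11 lysates correlated best with their own number. This hints at shared variation (median correlation 0.418, 0.153 and 0.205 in that order), which the main tests do not take into account. Not every pair was above 0.1, and no source used here ties the numbers to a day or batch. The replicate block is given as an alternative, and whether the members that it adds changed is left undecided here.

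Changes of sign were found for values that were not called in the main tests. Many were near 0, but in 5′ UTR translation Abce1 (0.30) and Mcts2 (0.32) were close to the all-gene median of 0.33. With median centring, Mcts2 RNA was at −0.0044, and 5′ UTR translation at −0.18 for Denr, −0.17 for Eif2d, −0.027 for Abce1, −0.24 for Hbs1l, −0.20 for Etf1 and −0.0082 for Mcts2. With 5′ UTR footprints over 5′ UTR RNA, Denr was at −0.145, Hbs1l at −0.115 and Etf1 at −0.045. With scramble shRNA as the only control, Eif2d was at 0.00049 in RNA and −0.00099 in 5′ UTR translation, and Mcts2 at −0.046 in RNA and −0.033 in footprints. With the replicate block, Eif2d RNA was at 0.0069 and Hbs1l TE at −0.023. Leaving out single lysates gave −0.035 to 0.035 for Eif2d RNA, −0.046 to 0.047 for Mcts2 RNA and −0.034 to 0.063 for Mcts2 footprints. In TE it gave −0.053 to 0.147 for Abce1, −0.040 to 0.051 for Hbs1l, −0.066 to 0.093 for Etf1, −0.015 to 0.064 for Gspt1 and −0.042 to 0.046 for Mcts2. In 5′ UTR translation it gave −0.027 to 0.236 for Denr and −0.132 to 0.301 for Hbs1l. The log2 ratio of Gspt1 to Etf1 ran from −0.033 to 0.010 in footprints. That of Hbs1l to Pelo ran from −0.090 to 0.0084 in RNA and from 0.109 to 0.234 in footprints, passing at 0.234 (Gfp shRNA replicate 1 left out, p = 0.0476 by exact permutation). Few reads on Mcts1 RNA, 44 to 84 per library, limit the precision of its TE.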
